A study of Homo sapiens with 8 samples.

Results

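The genes described here are 33 genes of cholesterol and fatty acid synthesis, taken by symbol from a list of SREBP pathway and lipid synthesis genes, out of 17309 genes in the count table. They comprise 20 enzymes of the sterol branch, 8 enzymes of the fatty acid branch, and 5 regulators or carriers, namely SREBF1, SREBF2, SCAP, INSIG1 and STARD4. All 33 were in the table and all 33 passed the filter on low counts, among 13619 genes tested.

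The study asked which transcripts changed after depletion of NAT10, the RNA acetyltransferase that writes N4-acetylcytidine, in colorectal cancer (CRC) cells. RNA-seq was available for SW480 and DLD-1, established human CRC lines, each infected with a lentivirus carrying a control hairpin (shControl, genotype label WT) or a hairpin against NAT10 (shNAT10, genotype label NAT10 knockdown). Every group was thus a virus-infected population, kept per the labels in DMEM with serum, and the labels do not say which NAT10 hairpin was used. Each of the 4 groups had 2 libraries, labelled as biological replicates without stating that the cultures were separate, so the p-values measure the spread between these libraries.

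Cholesterol is built from acetyl-CoA through the mevalonate pathway, squalene and lanosterol, and fatty acids from acetyl-CoA through malonyl-CoA, chain elongation and desaturation. Both branches are switched on by the SREBP transcription factors, the products of SREBF1 and SREBF2, which are held in the endoplasmic reticulum by SCAP and INSIG proteins while sterols are plentiful and are released when sterols fall. SREBP-2 is best known for the sterol branch and SREBP-1 for the fatty acid branch, and rapidly growing tumour cells draw on both pathways for membranes.

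Promoter sequences were searched for the letters of 4 known promoter motifs. RefSeq promoters on GRCh38.p14, running from 250 bases before to 50 bases after a start site, were found for 29 of the 33 members. The 9-base sterol regulatory element-like motif TCACNCCAC, where N is any base, was found on either strand in 1 of the 29 genes (3.45%), against 1.48% of the 11037 tested genes with a promoter and 1.13% of all 35116 promoters. The E-box CACGTG was found in 4 of the 29 (13.8%) and in 12.5% of tested genes, and the GC box GGGCGG in 27 (93.1%) and 76.5%. The CCAAT box was found in 22 of the 29 (75.9%), against 42.8% of tested genes and 34.6% of all promoters. These are matches of letters in a short window and are a description only. The upstream stretches of 3 genes are printed, with the CCAAT box on either strand, the E-box and the sterol element-like match in capitals. MSMO1 and INSIG1 are members called with knockdown, and SREBF2, which was not called, is printed for its motif match.
MSMO1, chr4:165327479-165327668, plus strand: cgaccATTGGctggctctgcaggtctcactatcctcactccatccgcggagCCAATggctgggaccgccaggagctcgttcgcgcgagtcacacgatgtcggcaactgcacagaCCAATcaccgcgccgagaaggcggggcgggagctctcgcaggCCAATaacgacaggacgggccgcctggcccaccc
INSIG1, chr7:155297703-155297877, plus strand: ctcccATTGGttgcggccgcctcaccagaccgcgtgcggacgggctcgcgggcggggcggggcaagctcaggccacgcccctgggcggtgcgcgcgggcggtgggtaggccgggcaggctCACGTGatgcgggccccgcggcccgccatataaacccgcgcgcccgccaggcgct
SREBF2, chr22:41832965-41833104, plus strand: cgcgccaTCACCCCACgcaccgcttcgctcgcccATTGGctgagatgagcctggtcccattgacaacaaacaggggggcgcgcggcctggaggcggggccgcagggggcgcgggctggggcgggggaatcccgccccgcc
The MSMO1 stretch holds 4 CCAAT boxes, INSIG1 holds a CCAAT box beside an E-box, and SREBF2 holds the only sterol element-like match among the members.

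Both designed NAT10 hairpins were compared with the members' transcripts, to show how much sequence they share. The target stretches, which occur whole in NAT10 mRNA, are printed for this comparison.
shNAT10-1: ggccaaagctgtcttgaaa
shNAT10-2: cagtgacgacctagatgaa
The longest run shared by a member was 12 bases, between HSD17B7 and shNAT10-2, a length reached by 0.069% of the 13080 tested genes with a GENCODE transcript. MSMO1 shared at most 8 bases with shNAT10-1, and 67.1% of tested genes shared a run at least as long. INSIG1 shared at most 8 bases with shNAT10-2, against 34% of tested genes.

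The libraries held 15147805 to 17271336 counts each, with a biological coefficient of variation of 5.85%. NAT10 itself stood at 122.3 and 122.5 CPM (counts scaled to 1000000 per library) in SW480 shControl and at 23.6 and 27.9 CPM in SW480 shNAT10. In DLD-1 it stood at 121.1 and 120.5 CPM in shControl and at 59.0 and 54.4 CPM in shNAT10. The fall was therefore deeper in SW480, with a log2 difference between the lines of −1.16 (standard error, SE, 0.118, adjusted p = 0.0015, edgeR), a call lost on FPKM values (adjusted p = 0.418 and 0.177) and without DLD-1 shNAT10 replicate 1 (0.073). Of 10 colon epithelial markers 9 were listed, and they summed to 3000 to 3710 CPM in SW480 and 7070 to 7620 CPM in DLD-1, with KRT20 at or under 3 counts in SW480 shControl. Of 10 markers of other cell types 7 were listed, summing to 18.1 to 33 CPM, with CD3E, COL3A1, DCN and PECAM1 at or under 3 counts in every group. The part of these marker differences in the results between the lines was not tested.

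With NAT10 knockdown few of the 33 transcripts passed the test. In SW480 cells 1 member, MSMO1, fell and 0 rose, where a call is an adjusted p under 0.05 by edgeR's quasi-likelihood test with Benjamini-Hochberg adjustment over all 13619 genes. That is 1 of 33 members, beside a background of 1.68% of all genes tested, 0.903% lower and 0.778% higher. In DLD-1 cells 0 members were called, beside a background of 0.0147%, and 4 members had an unadjusted p under 0.05, beside 5.96% of all genes. DESeq2 and limma-trend on log2(FPKM + 1) also called 0 members in DLD-1, whereas 1, INSIG1, was called with DLD-1 fitted alone, with a replicate block and after GC or length correction. For the mean over both lines 2 members were called, MSMO1 lower and INSIG1 higher, beside a background of 1.02%, 0.565% lower and 0.455% higher. For the difference between the lines 0 members were called, beside 0.00734%, and 5 had an unadjusted p under 0.05, beside 9.38% of all genes. In these bulk samples a lower value cannot be told apart between fewer cells of a kind and less RNA per cell.

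The precision of the data bounds what was missed. The 95% interval of the log2 fold change lay within 1 of 0 for 33 of 33 members in each line, and within 0.5 of 0 for 30 members in SW480 and 31 in DLD-1. The median SE of a member was 0.0798 in SW480 and 0.0774 in DLD-1. The members' median log2 fold change was 0.0131 (SW480) and 0.0349 (DLD-1), where the median of all genes tested was −0.00946 (SW480) and 0.00 (DLD-1).

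The transcription factor genes themselves were not called with knockdown. SREBF1, which encodes SREBP-1, stood at 107.8 and 108.8 CPM in SW480 shControl and at 116.4 and 113.2 CPM in SW480 shNAT10. In DLD-1 it stood at 162.7 and 176.3 CPM in shControl and at 187.5 and 170.4 CPM in shNAT10. The shNAT10 libraries were the higher in SW480 and overlapped with shControl in DLD-1, and the log2 fold changes were 0.08 (SE 0.071, adjusted p = 0.541, edgeR) and 0.08 (SE 0.0692, adjusted p = 0.932).
SREBF2, which encodes SREBP-2, stood at 188.8 and 196.8 CPM in SW480 shControl and at 176.8 and 180.6 CPM in SW480 shNAT10, and at 212.5, 228.6, 234 and 211.3 CPM in the shControl and then the shNAT10 libraries of DLD-1. Its log2 fold changes were −0.11 (SE 0.0691, adjusted p = 0.405, edgeR) and 0.01 (SE 0.0686, adjusted p = 1).
SCAP, the escort that carries the SREBPs to the Golgi, stood at 65.2 and 66.0 CPM in SW480 shControl and at 72.9 and 64.9 CPM in SW480 shNAT10. In DLD-1 its values were 74.1 and 76.7 CPM in shControl and 83.6 and 68.5 CPM in shNAT10. The groups overlapped in both lines, at log2 fold changes of 0.07 (SE 0.0933, adjusted p = 0.72, edgeR) and 0.01 (SE 0.0925, adjusted p = 1). For SREBF1, SREBF2 and SCAP the sign in a line was not stable, since a correction for GC content turned SREBF1 in SW480 to −0.03, SCAP to −0.04 in SW480 and −0.03 in DLD-1, and SREBF2 in DLD-1 to −0.01.

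INSIG1 (gene 3638, 7:155297776-155310235), a retention protein of the SREBP system and itself a well-known SREBP target, was the regulator that rose. It stood at 51.2 and 53.4 CPM in SW480 shControl, against 58.4 and 57.3 CPM in SW480 shNAT10. In DLD-1 it stood at 49.9 and 49.6 CPM in shControl, against 62.4 and 66.1 CPM in shNAT10. Both shNAT10 libraries were above both shControl libraries in each line. Libraries did not overlap, in either direction, for 47.9% of all genes tested in SW480 and 36% in DLD-1. The log2 fold change was 0.15 in SW480 (SE 0.0724, adjusted p = 0.287, edgeR) and 0.37 in DLD-1 (SE 0.0725, unadjusted p = 0.00016, adjusted p = 0.155, edgeR). Over both lines it was 0.26 (SE 0.0513, 95% interval 0.148 to 0.367, adjusted p = 0.0302, edgeR), a rise of 1.2-fold. The difference between the lines was −0.22 (SE 0.102, adjusted p = 0.529). Leaving out SW480 shNAT10 replicate 1 or 2 kept this call (adjusted p = 0.0382 and 0.0104), and leaving out any of the other 6 libraries ended it (0.116 to 0.165), as did using no filter on low counts (0.0794). The value itself ran from 0.24 to 0.28 over those 8 fits. In DLD-1 alone INSIG1 passed with that line fitted by itself (adjusted p = 0.028), with a replicate block (0.0145), after GC (0.0403) or length correction (0.027) and without SW480 shNAT10 replicate 1 (0.0369) or 2 (0.0399).

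STARD4, a cytosolic protein that carries cholesterol between membranes, stood at 66.6 and 64.6 CPM in SW480 shControl and at 50.2 and 54.8 CPM in SW480 shNAT10. In DLD-1 it stood at 40.1 and 45.8 CPM in shControl and at 41.7 and 46.4 CPM in shNAT10. The groups were apart in SW480 and overlapped in DLD-1. The log2 fold changes were −0.32 (SE 0.0856, adjusted p = 0.0777, edgeR) and 0.03 (SE 0.0893, adjusted p = 1), and their difference was −0.36 (SE 0.124, adjusted p = 0.488). Without SW480 shNAT10 replicate 2 the SW480 value was −0.39. It passed with a replicate block (adjusted p = 0.00655, edgeR) and shrank to −0.20 after GC correction. On FPKM values it was −0.06 and −0.07, but those fits used only transcripts with a value in every library. Over all its transcripts STARD4 had a mean of 17.1 FPKM in SW480 shControl, against 13.2 FPKM in the 1 complete SW480 shNAT10 library.

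In the sterol branch, the member with the clearest fall was MSMO1 (gene 6307, 4:165327623-165343160 in the GENCODE annotation of GRCh38), the sterol-C4-methyl oxidase that begins removal of the methyl groups of lanosterol derivatives. It stood at 45.1 and 46.0 CPM in SW480 shControl, against 29.8 and 31.9 CPM in SW480 shNAT10. In DLD-1 it stood at 75.4 and 71.2 CPM in shControl, against 59.5 and 65.7 CPM in shNAT10. Both knockdown libraries lay below both controls in each line, and MSMO1 was the only member of which this held. The share of all genes with this pattern in both lines was not counted. In a single line, 47.9% of all genes tested in SW480 and 36% in DLD-1 did not overlap, in either direction. In SW480 the log2 fold change was −0.56 (SE 0.0826, 95% interval −0.741 to −0.387, adjusted p = 0.00396, edgeR), or 0.676 times control. For DLD-1 cells it was −0.23 (SE 0.0767, adjusted p = 0.658, edgeR), and the mean over both lines was −0.40 (SE 0.0564, adjusted p = 0.00368). The difference of the fall between the lines was −0.34 (SE 0.113, 95% interval −0.577 to −0.0943, unadjusted p = 0.00987), which did not pass after adjustment (adjusted p = 0.472). The SW480 call was lost without SW480 shControl replicate 2 (adjusted p = 0.0809) and on FPKM values (0.0777 and 0.0846), at log2 fold changes of −0.55 to −0.58. The call over both lines was lost without DLD-1 shNAT10 replicate 1 (0.0507) and on FPKM values (0.0759 and 0.0657), at −0.36 to −0.40. Per length, MSMO1 ranked 19 of 33 members in SW480 shControl at a mean of 24.1 FPKM, fragments scaled by transcript length and library size. In SW480 shNAT10 it ranked 25 at 16.1 FPKM. Among the members that passed it in rank, PMVK, MVD, GGPS1 and INSIG1 had a value in only 1 library of that group. The ranks thus compare unlike sets of libraries.

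The enzymes acting beside MSMO1 were not called. NSDHL and HSD17B7, which with MSMO1 form the C4-demethylation complex, had log2 fold changes in SW480 of 0.11 (SE 0.0883, adjusted p = 0.53, edgeR) and −0.13 (SE 0.118, adjusted p = 0.566). In DLD-1 the values were 0.07 (SE 0.0916) and −0.03 (SE 0.101). HSD17B7 has 2 named pseudogenes in the annotation, CYP51A1 has 3 and FDPS has 8, and SCD and FADS2 of the fatty acid branch have 1 each. The counts of these genes thus depend on how reads shared with the copies were assigned.

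Upstream in the mevalonate part, PMVK, the phosphomevalonate kinase, had values of opposite sign in the lines. It stood at 12.4 and 12.7 CPM in SW480 shControl and at 16.5 and 14.3 CPM in SW480 shNAT10, and at 10.5 and 10.9 CPM in DLD-1 shControl and 8.13 and 8.08 CPM in DLD-1 shNAT10. Groups did not overlap in either line, beside 47.9% of all genes tested in SW480 and 36% in DLD-1. The log2 fold changes were 0.30 (SE 0.111, adjusted p = 0.172, edgeR) and −0.40 (SE 0.126, adjusted p = 0.588), and their difference was 0.70 (SE 0.168, unadjusted p = 0.000967, adjusted p = 0.398), which did not pass. The SW480 value was 0.20 without SW480 shNAT10 replicate 1 and 0.16 after length correction. HMGCS1, the HMG-CoA synthase, was the only member with the reverse pattern, at −0.11 in SW480 (SE 0.0729, adjusted p = 0.413) and 0.13 in DLD-1 (SE 0.0688, adjusted p = 0.879).

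The other 17 enzymes of the sterol branch had log2 fold changes that did not pass in either line. MVD, the mevalonate diphosphate decarboxylase, had the largest of these in SW480 at 0.26 (SE 0.0935, adjusted p = 0.162, edgeR), and FDPS, the farnesyl diphosphate synthase, had 0.22 (SE 0.076, adjusted p = 0.152). These values depended on a library, because without SW480 shNAT10 replicate 2 the calls in SW480 were 2 lower (MSMO1, STARD4) and 3 higher (FDPS 0.33, MVD 0.36 and PMVK 0.40, adjusted p = 0.00594, 0.023 and 0.0374). In that fit 1131 of all genes were called lower and 1031 higher, against 123 and 106 with every library. Without SW480 shControl replicate 2, 0 members were called in SW480, beside 9 lower and 9 higher among all genes. At the limits the study used for its own lists, a fold change above 1.2 or below 0.83 with an unadjusted p under 0.05, MSMO1 and STARD4 were lower and PMVK higher in SW480, 3 of 33 members beside 9.08% of all genes tested (4.98% lower, 4.1% higher). At the same limits PMVK was lower and INSIG1 higher in DLD-1, 2 of 33 beside 2.68% (1.34% in each direction). These names follow from the counts and were chosen after their values were seen.

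In the fatty acid branch 0 of 8 enzymes were called in either line. FASN, the fatty acid synthase, had the largest value in DLD-1, at a log2 fold change of 0.22 (SE 0.0931, unadjusted p = 0.0339, adjusted p = 0.824, edgeR), and 0.11 in SW480 (SE 0.0954, adjusted p = 0.541). FADS1, the delta-5 desaturase, had the largest in SW480 at −0.16 (SE 0.0741, adjusted p = 0.258), and 0.01 in DLD-1. Adjusted p over the 8 enzymes ran from 0.258 upwards in SW480 and from 0.824 in DLD-1. The libraries did not overlap for 20 of 33 members in SW480, 11 higher and 9 lower, and for 14 of 33 in DLD-1, 11 higher and 3 lower, beside 47.9% and 36% of all genes tested. LSS, TM7SF2, FASN and INSIG1 were above control in both shNAT10 libraries of both lines. How many of all genes tested did so was not counted, so this is a description only.

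More members differed between SW480 and DLD-1 than between hairpins. In shControl cells 22 of 33 members differed between the lines (66.7%), 16 lower and 6 higher in SW480, beside a background of 73.8% of all genes tested, 35.6% lower and 38.1% higher. In shNAT10 cells 23 members differed, 16 lower and 7 higher, beside a background of 74.5%, 36.3% lower and 38.2% higher. In both, 20 members differed in the same direction, 14 lower and 6 higher, beside 66.3% of all genes tested. The share of members called was thus not above that of other genes, and the direction was mostly towards lower levels in SW480.

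Of the sterol branch, 10 enzymes were lower and 2 higher in SW480 shControl than in DLD-1 shControl. That is 60% of the branch called, beside 73.8% of all genes tested (35.6% lower, 38.1% higher). HMGCS1, which makes HMG-CoA at the entry to the mevalonate pathway, stood at 94.8 and 92.7 CPM in SW480 shControl and at 224.5 and 233.8 CPM in DLD-1 shControl, and at 81.4 and 91.9 against 244.2 and 257.7 CPM in shNAT10. The log2 difference was −1.29 (SE 0.0715, adjusted p = 5.65e-10, edgeR), or 2.44-fold lower, and −1.53 in shNAT10 (SE 0.072). HSD17B7, the 3-keto sterol reductase, stood at 16.4 and 14.99 against 33.2 and 32.9 CPM in shControl and at 13.8 and 14.8 against 29.3 and 35.7 CPM in shNAT10, a log2 difference in shControl of −1.08 (SE 0.108, adjusted p = 4.43e-07). FDFT1, the squalene synthase that commits farnesyl diphosphate to sterols, stood at 151.7 and 155 against 286.4 and 277.9 CPM in shControl and at 173.2 and 166.7 against 279.1 and 285.7 CPM in shNAT10, a shControl difference of −0.88 (SE 0.0607, adjusted p = 6.91e-09). Of the enzymes higher in SW480, LSS, the lanosterol synthase, stood at 111.9 and 112.5 against 79.5 and 84.6 CPM in shControl and at 129.6 and 122.8 against 91.8 and 86.3 CPM in shNAT10, a shControl difference of 0.45 (SE 0.0702, adjusted p = 3.93e-05). In each of these genes the 2 lines did not overlap. The genes were named for the size of their difference, so this separation is a description only.

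In the fatty acid branch, ACLY, ACACA, FASN and ELOVL6, which act in the making of saturated chains, were lower in SW480, and ACSS2 and the polyunsaturated fatty acid desaturases FADS1 and FADS2 were higher. In shControl 4 of 8 were thus lower and 3 higher, beside 35.6% lower and 38.1% higher of all genes tested. SCD, the delta-9 desaturase, was not called, at −0.01 (SE 0.0682, adjusted p = 0.903, edgeR).
FASN stood at 186.9 and 218.1 CPM in SW480 shControl against 425.9 and 515.9 CPM in DLD-1 shControl, and at 218.6 and 219.7 against 579.2 and 516.6 CPM in shNAT10, a log2 difference in shControl of −1.22 (SE 0.0955, adjusted p = 2.86e-08). ELOVL6, which elongates palmitate to stearate, stood at 28.8 and 30.3 against 55.0 and 56.7 CPM in shControl and at 26.1 and 29.8 against 50.5 and 56.9 CPM in shNAT10, a shControl difference of −0.92 (SE 0.0883, adjusted p = 2.71e-07).
ACSS2, which makes acetyl-CoA from acetate, went the other way at 74.0 and 77.5 against 34.5 and 34.1 CPM in shControl and 82.6 and 79.3 against 34.4 and 34.9 CPM in shNAT10, a shControl difference of 1.14 (SE 0.0734, adjusted p = 3.04e-09). ACLY, the citrate lyase that is the other cytosolic source of acetyl-CoA, was lower in SW480 by −0.36 in log2.

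FADS1 had the largest difference of all members. It stood at 128 and 141 CPM in SW480 shControl and at 118 and 123 CPM in SW480 shNAT10. In DLD-1 it stood at 5.99 and 5.27 CPM in shControl and at 5.6 and 5.78 CPM in shNAT10. The log2 difference was 4.58 in shControl (SE 0.101, 95% interval 4.36 to 4.79, adjusted p = 2.57e-14, edgeR), or 23.8-fold, and 4.40 in shNAT10 (SE 0.102). FADS2, the delta-6 desaturase acting just before FADS1 in the pathway, stood at 38.4 and 35.2 CPM in SW480 shControl and 12.1 and 12.1 CPM in DLD-1 shControl, and at 40.1 and 37.9 against 11.5 and 11.8 CPM in shNAT10, a shControl difference of 1.61 (SE 0.0947, adjusted p = 1.14e-09), or 3.04-fold. Per length, FADS1 ranked 13 of 33 members in SW480 shControl at 33.2 FPKM and last in DLD-1 shControl at 1.37 FPKM. The next rank up in DLD-1 shControl was FADS2, at 4.38 FPKM. The genes lie on opposite strands of chromosome 11. The whole GENCODE model of FADS1 lies within that of FADS2, an overlap of 29694 bases. The strand setting of the counting is not given in the sources used here, so reads from the shared stretch cannot be assigned with certainty.

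Among the regulators, SREBF1 was lower in SW480 shControl by −0.65 in log2 (SE 0.0704, adjusted p = 1.06e-06, edgeR) and SREBF2 by −0.19 (SE 0.0688, adjusted p = 0.0198), and STARD4 was higher by 0.61 (SE 0.0869, adjusted p = 1.66e-05). SCAP and INSIG1 did not pass, at −0.20 (SE 0.093, adjusted p = 0.0649) and 0.07 (SE 0.0731, adjusted p = 0.375). In shNAT10 cells STARD4 was still higher, by 0.25 (SE 0.0881, adjusted p = 0.0171), a call lost without SW480 shNAT10 replicate 2 (0.0904) or DLD-1 shNAT10 replicate 1 (0.169).

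The sterol and fatty acid branches were then set side by side. With shNAT10 the sterol branch had a median log2 fold change of 0.0368 and the fatty acid branch of −0.0352 in SW480, and of 0.0254 and 0.0245 in DLD-1. The order in SW480 was not stable, since it turned to −0.03357 and 0.04436 after length correction. The sterol median was −0.07093 and −0.07808 on FPKM values, in fits limited to transcripts with a value in every library. Summed over a branch, the sterol enzymes held 1571 and 1571 CPM in SW480 shControl and 1603 and 1590 CPM in SW480 shNAT10, and the fatty acid enzymes 1104 and 1204 CPM against 1105 and 1157 CPM. In DLD-1 the sterol enzymes held 1968 and 1996 CPM in shControl and 2003 and 2057 CPM in shNAT10, and the fatty acid enzymes 1298 and 1449 CPM against 1514 and 1459 CPM. The sterol sum was higher in every DLD-1 library than in every SW480 library, as was the fatty acid sum. Between hairpins the fatty acid sums overlapped in SW480 and were higher in both shNAT10 libraries of DLD-1. The sterol sums of shNAT10 were above those of shControl in each line, by small amounts. Of all single genes tested, 47.9% in SW480 and 36% in DLD-1 did not overlap between hairpins. The order of the sums is thus a description only.

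Between the lines, the median log2 difference of SW480 over DLD-1 was −0.196 for the sterol branch and −0.187 for the fatty acid branch in shControl, and −0.162 and −0.318 in shNAT10, beside 0.0113 and 0.014 over all genes tested. The mean log2 CPM of the sterol branch minus that of the fatty acid branch was −0.734 to −0.856 in the 4 SW480 libraries and −0.000855 to −0.0515 in the 4 DLD-1 libraries. This quantity depends on the lengths of the genes and is compared only between libraries. With FADS1 and FADS2 left out it was −0.925 to −1.07 in SW480 and −1.03 to −1.13 in DLD-1, and the ranges overlapped.

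**Figure D1:**
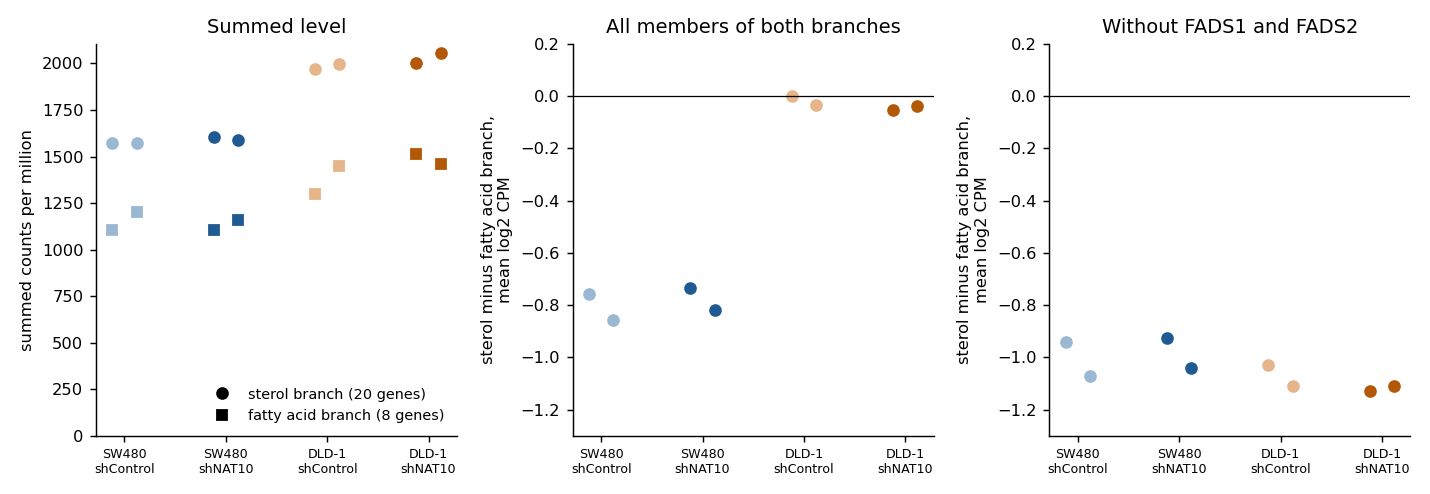
Branch values in each library, with the summed CPM of the 20 sterol (circles) and 8 fatty acid enzymes (squares) on the left, and the mean log2 CPM of the sterol minus the fatty acid branch in the middle and, without FADS1 and FADS2, on the right. The lines are separated in the middle panel, at −0.734 to −0.856 in SW480 and −0.000855 to −0.0515 in DLD-1, and overlap on the right.

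Per length, FDPS and FDFT1 led the members in all groups, with a value in only 1 library of SW480 shNAT10. FDPS was first of the members at 169 FPKM in SW480 shControl (165 and 173) and 193 FPKM in DLD-1 shControl (192 and 194). FDFT1 was second, at 87.2 and 159 FPKM in the same groups, and in SW480 shControl it could not be set apart from EBP, the sterol isomerase, since the libraries of FDFT1 ran from 85.9 to 88.5 FPKM and those of EBP from 81.5 to 91.5 FPKM. Nor were they set apart in SW480 shNAT10, with FDFT1 at 96.1 FPKM in 1 library and EBP from 79.5 to 97.0 FPKM. ELOVL6 was lowest in SW480 shControl at 4.75 FPKM. SW480 shNAT10 replicate 2 had no complete FPKM for 16 members, since its deposited FPKM values end early.

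The wider lipid pathways gave 2 further calls with knockdown, from lists chosen for their roles but with earlier results of these data known. Of 11 genes of sterol uptake, trafficking and esterification, 1 was lower over both lines, VLDLR, a receptor for triglyceride-rich lipoproteins, beside 0.565% of all genes lower in that comparison. It stood at 44.8 and 47.8 CPM in SW480 shControl against 33.9 and 39.1 CPM in shNAT10, and at 18.3 and 14.5 against 12.1 and 12.1 CPM in DLD-1. Hairpins did not overlap in either line, beside 47.9% of all genes tested in SW480 and 36% in DLD-1. The mean log2 fold change was −0.39 (SE 0.0815, adjusted p = 0.0366, edgeR), a call lost in 6 of 8 fits that each left out a library (0.0647 to 0.255), without a filter (0.129) and on FPKM values (0.29 and 0.315). Of 11 glycerolipid synthesis genes, 1 was lower, GPAT3, a glycerol-3-phosphate acyltransferase, at 71.3 and 69.5 against 57.0 and 61.1 CPM in SW480 and 26.7 and 25.0 against 22.1 and 20.2 CPM in DLD-1. Its mean was −0.27 (SE 0.0578, adjusted p = 0.0416), a call lost in 7 of 8 such fits (0.0865 to 0.224), with DESeq2 (0.0617), without a filter (0.107) and on FPKM values, where it was −0.06 (0.843 and 0.859). The 10 SREBP processing partners, 6 LXR and efflux genes, 11 genes of isoprenoid use, 16 genes of fatty acid supply, elongation and activation and 15 genes of fatty acid oxidation had 0 calls in either line, over both lines or in the difference, and 1, 1, 0, 1 and 0 of them had an unadjusted p under 0.05 over both lines, beside 14.5% of all genes. In SW480 it was 3, 2, 0, 2 and 2, beside 19.3%.

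Between the lines, the elongase that acts between FADS2 and FADS1 also differed. ELOVL5, the elongase of polyunsaturated fatty acids, had 0 counts in all 4 DLD-1 libraries and stood at 72.2 and 70.5 CPM in SW480 shControl and 62.1 and 63.6 CPM in SW480 shNAT10. Against a floor of 3 counts per library it was at least 397-fold higher in SW480 shControl and at least 315-fold higher in SW480 shNAT10, limits that cover counting error only. Every one of its listed transcripts was at 0 in the DLD-1 libraries, and whether reads were present but not assigned was not tested. PLIN2, a coat protein of lipid droplets, stood at 149.7 and 142.3 CPM in SW480 shControl and 0.587 and 0.829 CPM in DLD-1 shControl, a log2 difference of 7.67 (adjusted p = 3.48e-15, edgeR). Of the 10 SREBP processing partners 6 were higher and 0 lower in SW480 shControl, led by PAQR3 at 0.74, INSIG2 at 0.70 and MBTPS2 at 0.52 in log2, beside 38.1% of all genes higher and 35.6% lower, and in shNAT10 3 were higher and 2 lower. Of the 11 genes of sterol uptake, trafficking and esterification 7 were higher and 3 lower in shControl and again in shNAT10.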

How the data were processed

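RNA-seq libraries of SW480 and DLD-1 cells, 2 per group, fell into 4 groups, given by line and virus in the labels. The authors deposited estimated counts per RefSeq transcript and FPKM values per library, and the submitters' processing notes list HISAT2 2.0.4, Bowtie2 2.2.5, RSEM 1.2.12 and hg38. The table listed 78953 transcripts, whose counts were summed per Entrez gene and rounded. Among nonzero values of genes with several transcripts, 86.9% of gene totals lay within 0.05 of a whole number. By a stricter rule, 4.53% of the transcript values were whole, so these shares are not directly comparable. FPKM values deposited for SW480 shNAT10 replicate 2 stop early, leaving 18.6% of transcripts without a value. Deposited group averages are the authors' means and were not used.

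Gene totals passed filterByExpr (minimum count 10, total 15), were scaled by TMM and fitted with edgeR 4.0.16 (R 4.3.3, glmQLFit) as 4 groups, with 6 contrasts and Benjamini-Hochberg adjustment over all 13619 genes. SE is the log2 fold change over the square root of F. Depths of 15147805 to 17271336 counts and 2 libraries a group limit the precision. CPM values use the TMM-scaled library sizes. Alternatives were DESeq2 1.42.0, upper-quartile scaling, other filters, single lines, a replicate block, limma 3.58.1 trend on log2(FPKM + 1) and log2(FPKM + 0.1), the limits of the study, each library left out and, chosen after seeing the data, GC and length corrections (loess, span 0.5). The FPKM fits used only transcripts with a value in every library, so some genes were summed over part of their transcripts. Symbols matched 99.3% of gene identifiers. Promoters are from RefSeq and gene positions from GENCODE v29. The fit was tested on simulated data, with a setting and result that are not given here. Python 3.11.15 was used elsewhere. The members and pathway lists were chosen with earlier results of these data known. Values are printed in every library for members called with knockdown, for SREBF1, SREBF2, INSIG1 and SCAP, and for the 5 members most changed between the lines in each direction, and up to 3 genes are named from each further list.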

Additional observations from a re-analysis of the deposited data

Results flagged for a closer look

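NAT10, the targeted gene, differed between the cell lines in its response to the hairpin. Its log2 fold change was −2.25 in SW480 and −1.09 in DLD-1, and the difference of −1.16 (SE 0.118, adjusted p = 0.0015, edgeR) was the only difference between the lines called among all 13619 genes. It was not called on log2(FPKM + 1) or log2(FPKM + 0.1), at −1.09 and −1.18 (adjusted p = 0.418 and 0.177, limma), nor without DLD-1 shNAT10 replicate 1, at −1.10 (0.073), and the knockdown in DLD-1 missed the threshold on log2(FPKM + 1) (0.0524). No member of the sterol or fatty acid branch was called for this difference, and 5 of 33 had an unadjusted p under 0.05. With 2 libraries per group, single libraries were not tested as outliers.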

How the results depend on the processing

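Depth and 2 libraries a group limit what can be called, and results for members rested on few libraries. The replicate numbers pair no samples by the labels, and the deviations of same-numbered libraries correlated at 0.128 in SW480 and 0.0363 in DLD-1 (−0.00535 to 0.124 across the lines). With a replicate block, 2 members were lower (MSMO1, STARD4) and 1 higher (FDPS) in SW480, and 1 higher (INSIG1) in DLD-1, while calls over all genes in SW480 went from 123 lower and 106 higher to 822 and 650, in DLD-1 from 2 and 0 to 30 and 33, over both lines from 77 and 62 to 361 and 325, and in the difference from 1 and 0 to 50 and 62. Without a filter on low counts 21 and 20 genes were called in SW480 and 22 and 25 over both lines, each line alone gave 13 and 16 in SW480 and 13 and 25 in DLD-1, log2(FPKM + 1) gave 3 and 6 in SW480 and 2 and 3 over both lines, and DESeq2 gave 2 and 9 in DLD-1. The cause was not tested for any of these changes.

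On log2(FPKM + 1) and log2(FPKM + 0.1), 0 members were called lower in SW480, and 0 lower and 0 higher over both lines. The sterol branch median was then −0.07093 and −0.07808 in SW480, −0.07422 and −0.09428 for the difference, −0.1694 and −0.1721 between the lines in shControl and −0.2173 and −0.2388 in shNAT10, where the fatty acid median was −0.4411 and −0.471. STARD4 over both lines turned to 0.1454 and 0.2036, and SREBF1 in the difference to −0.0346 and −0.03456. These fits left out transcripts without a value in SW480 shNAT10 replicate 2, so STARD4 and other genes were summed over part of their transcripts. The limits of the study gave 2 lower and 1 higher in SW480, 1 and 1 in DLD-1, 0 higher over both lines, and 2 lower and 1 higher in the difference. In the difference 552 of all 13619 genes tested were lower and 518 higher at the same limits. Each line alone gave 1 higher in DLD-1, and no filter 0 higher over both lines. Upper-quartile scaling moved the sterol median to −0.03922 in the difference and to −0.1776 and −0.1275 between the lines in shControl and shNAT10, at least 10 counts in every library moved it to −0.1689 and −0.1323, and DESeq2 to −0.1454 in shNAT10.

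Of the corrections chosen after seeing the data, GC content gave 1 higher in DLD-1 and sterol medians of 0.01777 in SW480, 0.04038 in DLD-1 and −0.2009 between the lines in shNAT10 (fatty acid −0.3671). It turned SREBF1 to −0.03017 in SW480 and −0.06715 in the difference, SREBF2 to −0.009582 in DLD-1, and SCAP to −0.04424 in SW480, −0.0263 in DLD-1, −0.03527 over both and −0.01794 in the difference. Length gave 1 higher in DLD-1, 2 higher over both lines (INSIG1, FASN), and sterol medians of −0.03357 in SW480, −0.07552 in the difference, −0.1673 in shControl and −0.1281 in shNAT10. Its fatty acid medians were 0.04436 in SW480, 0.02696 in the difference and −0.2708 in shNAT10.

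With each library left out in turn, calls over all genes ran from 9 to 1131 lower and 9 to 1031 higher in SW480, 1 to 10 and 0 to 20 in DLD-1, 13 to 604 and 12 to 553 over both lines and 0 to 170 and 0 to 176 in the difference. Members called in SW480 ran from 0 to 2 lower and 0 to 3 higher, in DLD-1 from 0 to 1 higher, over both lines from 0 to 1 lower and 0 to 2 higher, and in the difference from 0 to 2 higher. Without SW480 shNAT10 replicate 2, FDPS and PMVK passed in the difference. Sterol medians ran from 0.01559 to 0.05201 in SW480, 0.01726 to 0.06668 in DLD-1, 0.00991 to 0.04361 over both, −0.07019 to −0.004199 in the difference, −0.2151 to −0.1896 in shControl and −0.2314 to −0.1548 in shNAT10. Fatty acid medians ran from −0.09573 to 0.04157 in SW480, −0.1675 to −0.009314 in the difference, −0.242 to −0.1318 in shControl and −0.3614 to −0.2716 in shNAT10. SCAP ran from −0.007626 to 0.1534 in SW480, −0.1377 to 0.1494 in DLD-1, −0.03352 to 0.1103 over both and −0.07815 to 0.2084 in the difference. SREBF2 in DLD-1 ran from −0.06221 to 0.08521, STARD4 in DLD-1 from −0.05432 to 0.1352, PMVK over both from −0.0973 to 0.002667, and SREBF1 in the difference from −0.05957 to 0.07735.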

Other observations

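Fatty acid oxidation and isoprenoid use consume the products of the pathways above, and the counts of their genes that differed between the lines are set beside 73.8% of all genes tested (38.1% higher and 35.6% lower in SW480 shControl). Of 15 fatty acid oxidation genes 7 were higher and 6 lower in SW480 shControl than in DLD-1 shControl. CPT1A, which admits fatty acids to mitochondria, was higher by 2.10 in log2 and ACADVL, the very long chain acyl-CoA dehydrogenase, by 1.21, while ACAA2, the last enzyme of the spiral, was lower, at −1.85 (adjusted p from 2.25e-12 to 2.06e-09, edgeR). Of 11 genes of isoprenoid use 4 were higher and 6 lower, led by RABGGTB, a subunit of the enzyme that prenylates Rab proteins, at −0.75 (adjusted p = 5.8e-07, edgeR). Of 6 LXR and efflux genes 2 were higher and 2 lower, with ABCG1, a sterol exporter, at 3.29 (adjusted p = 3.3e-07) and MYLIP, a ligase that degrades lipoprotein receptors, at −2.13 (adjusted p = 9.25e-09).

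Of 16 genes of fatty acid supply, elongation and activation 9 were lower and 4 higher in SW480 shControl, with a median log2 difference of −0.396. Of all genes tested, 35.6% were lower and 38.1% higher in SW480 shControl. Among the higher genes, ACSL4, an acyl-CoA synthetase that prefers polyunsaturated fatty acids, differed by 2.15 in log2 (adjusted p = 3.03e-12, edgeR) and ACSL1, of the same family, by 1.89 (adjusted p = 8.77e-12). Of the 9 colon epithelial markers 7 were lower in SW480 shControl, among them EPCAM at −2.19 (adjusted p = 4.25e-13, edgeR), and 2 were higher, VIL1 at 1.42 and LGALS4 at 1.05.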
